A study of Ovis aries with 40 samples.

Results

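INSIG1, IDI1, ACACA, SCD and APOC2 are 5 genes of fat and sterol metabolism that were followed in the longissimus dorsi muscle of sheep, by 7 of the 15008 probes of a 1-colour Agilent array and among 986 genes with a name. They were chosen by measured values of these same arrays, as genes that the study listed as differing between Texel and Ujumqin fetuses: INSIG1, IDI1 and SCD at 100 d of gestation, ACACA at 85 d and APOC2 at 85 d and 135 d. Differences between the breeds at those stages are therefore given as a description with no test, and tests are given for changes with stage and for the breeds at 70 d and 120 d. The 5 genes are not all synthesis enzymes: INSIG1 is a regulator of sterol synthesis, and APOC2 is a cofactor of fat uptake.

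The study asked how muscle gene expression develops in a heavily muscled and in a less muscular breed: Texel, described by the study as carrying a myostatin (GDF8) mutation, and Ujumqin, a Chinese breed described as without it. Fetal muscle of both breeds was taken at 5 ages, from 70 d and 85 d through 100 d and 120 d to 135 d of gestation, with 3 fetuses a group except for 4 Texel fetuses at 100 d. Ujumqin muscle was also sampled at birth, 1 month and 2 months, with 3 animals a stage, which gives 13 groups and 40 arrays in all. Fetuses were taken by caesarean section from 3 ewes a stage, so at least a pair of the 4 Texel fetuses at 100 d may share a dam. All Texel fetuses at 120 d were male and all Ujumqin fetuses at that age female, so breed and sex cannot be told apart there.

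Cells make cholesterol and unsaturated fatty acids through enzymes whose genes are switched on when membrane sterol is low. INSIG1 holds the sterol-sensing complex in the endoplasmic reticulum when sterol is plentiful, IDI1 isomerises isopentenyl diphosphate on the way to cholesterol, ACACA makes the malonyl-CoA from which fatty acids are built, and SCD puts a double bond into saturated fatty acids. APOC2 is the cofactor that lipoprotein lipase needs to release fatty acids from circulating lipoproteins, and is best known as a liver product.

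The probes that carry the measurements are 60 bases long, and the first 30 bases of each are shown; no probe was aligned to a genome, so its gene was not checked. Capitals mark the 28 bases of the shown stretch that the pair of ACACA probes share.
INSIG1 (A_70_P043501): cttgtaaaaagaagagtgcgcacgtcactg
IDI1 (A_70_P011371): caccgaatgtaaaagtggagatgaatggtt
ACACA (A_70_P030122): acTTTAGGTCTTTATTGGACAGGACTCTTG
ACACA (A_70_P030121): TTTAGGTCTTTATTGGACAGGACTCTTGtc
SCD (A_70_P064921): taagtgtgtccaccatgaaccacgtgtcct
SCD (A_70_P039361): attgataaatagggtgagttgaagtgggaa
APOC2 (A_70_P054756): ctcagcatcctgttcccaattctagcctga
The ACACA probes overlap by 58 of their 60 bases, offset by 2, so they measure nearly the same stretch and are no independent check on each other. The SCD probes share no run longer than 6 bases. Probe GC content was 45% for INSIG1, ACACA and SCD, 36.7% for IDI1 and 35% for APOC2, beside a median of 43.3% over 15008 probes. The motif AATAAA, searched on the probe strand, was in the APOC2 probe and not in the other 6, and in 5.63% of all probes.

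Values are log2 of the quantile-normalized processed signal, a relative scale on which 1 unit is 2-fold. Levels of the 5 genes are not compared with each other. Over the 40 arrays, 79.3% to 90.9% of spots were well above background and none were saturated; the array median of the processed signal ran from 217.6 to 708.3. INSIG1, IDI1, SCD and APOC2 were well above background on all arrays. The brighter ACACA probe was well above background on 31 of 39 arrays and the other on 25 of 40. The brighter probe of ACACA and of SCD was used throughout unless stated. The brighter SCD probe has its name from the study's annotation only, and the other from the array files. The arrays lay on 5 slides of 8.

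The tissue label was checked against marker genes, by the probes that carry a gene name. Other markers may lie on the array under probes without a name. The study's annotation, for example, gives MYH1 and ACTN3 probes that are not counted here. Of 23 skeletal muscle markers 5 were named, each well above background on at least 1 array. Their summed signal ran from a group mean of 513000 (Texel, 120 d) to 821000 (Ujumqin, 2 months), with the TNNC2 probe the brightest. Of 13 adipocyte markers 4 were named, with the PPARG probe brightest, with sums from 2560 (Ujumqin, 70 d) to 6710 (Ujumqin, 1 month). Of 9 fibroblast and connective tissue markers 3 were named, with the DCN probe brightest, with sums from 65900 (Ujumqin, birth) to 216000 (Texel, 70 d). Of 12 erythroid markers HBB alone was named, at 1750 (Ujumqin, 2 months) to 142000 (Texel, 135 d).

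Of 16 macrophage and monocyte markers 5 were named, with the FCER1G probe brightest, with sums from 2200 (Ujumqin, 135 d) to 5580 (Texel, 120 d). Of 12 hepatocyte markers 5 were named, with the TF probe brightest, with sums from 1730 (Ujumqin, birth) to 5020 (Texel, 120 d). Of 12 lymphocyte markers 4 were named, with the CD3E probe brightest, with sums from 335 (Ujumqin, birth) to 2400 (Ujumqin, 2 months). Endothelial FLT1, 1 of 7 markers, ran from 6.46 (Ujumqin, 70 d) to 90.7 (Ujumqin, birth), where replicate 1 stood at 230.7 against 19.1 and 22.4, and nerve GFAP, 1 of 8, from 299 (Ujumqin, 100 d) to 780 (Ujumqin, birth). Every named marker was well above background on at least 1 array. Signals of different probes are on different scales, so brightness is no measure of abundance between genes. In whole muscle, fewer cells of a type and less RNA per cell cannot be told apart.

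Single animals stood apart in these sums. The lymphocyte sum was 5977 in replicate 3 of Texel 120 d, 4140 in replicate 3 of Texel 135 d and 1957 in replicate 4 of Texel 100 d, each above its group. HBB was 9111 in replicate 1 of Ujumqin at birth, against 90640 and 78500 in the other pair.

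INSIG1, the sterol-dependent brake on synthesis, was measured at 70 d at 9.80, 10.44 and 10.28 in the 3 Texel fetuses and at 9.76, 10.33 and 9.96 in the 3 Ujumqin fetuses. At 85 d the values were 9.47, 10.35 and 9.55 in Texel and 9.89, 9.51 and 9.47 in Ujumqin. The breeds overlapped at both ages. At 100 d, the stage for which it was chosen, it was 8.71, 8.73, 8.66 and 8.92 in the 4 Texel fetuses and 10.61, 9.85 and 10.41 in Ujumqin. All Texel values lay below all Ujumqin values there, a difference of group means of −1.54 (2.9-fold) that the choice of the gene fixes.

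At 120 d INSIG1 stood at 8.95, 9.52 and 8.32 in Texel and 8.78, 8.99 and 9.60 in Ujumqin. The 135 d values were 8.89, 8.91 and 9.76 in Texel and 9.33, 9.38 and 9.43 in Ujumqin. The breeds overlapped again at both. After birth, Ujumqin values were 8.22, 9.31 and 9.46 at birth, 9.06, 8.0 and 8.13 at 1 month and 9.79, 10.26 and 9.74 at 2 months. All animals of 2 months lay above all of 1 month.

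INSIG1 rose 2.89-fold between 1 and 2 months, from 8.40 ± 0.58 to 9.93 ± 0.29 (SD, n = 3 each), a log2 change of 1.53 (SE 0.32, limma adjusted p = 0.00666). The call held with each of the 24 Ujumqin arrays left out in turn, with the change between 1.05 and 1.86 over all alternatives. It was lost when the pair of groups was fitted alone (adjusted p = 0.0739) and with slide as a fixed block over the 13 groups (1.34, SE 0.72, adjusted p = 0.637), and with the methods' t-test after adjustment, 3 of 42 alternatives. The groups of 1 and 2 months lie on different slides, so no within-slide value exists. The other steps of INSIG1 did not pass. The differences from 100 to 120 d in Ujumqin (−1.17) and from 85 to 100 d in Texel (−1.03), both with no overlap, share arrays with the choice and are given as a description. Beside the step from 1 to 2 months the lymphocyte sums were 1317, 1097 and 1263 at 1 month and 2746, 1483 and 2979 at 2 months, HBB was 10460, 4545 and 14070 and then 2480, 490 and 2292, and GFAP was 630.8, 734.8 and 648.6 and then 375.1, 387.5 and 466.9, all without overlap; their part in the result was not tested.

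Over the 13 groups INSIG1 means spanned 1.89 log2 units (3.71-fold), from Ujumqin 100 d at 10.29 to Ujumqin 1 month at 8.40, beside a pooled SD within groups of 0.42. From highest to lowest the order was Ujumqin 100 d, Texel 70 d, Ujumqin 70 d, Ujumqin 2 months, Texel 85 d, Ujumqin 85 d, Ujumqin 135 d, Texel 135 d, Ujumqin 120 d, Ujumqin birth, Texel 120 d, Texel 100 d and Ujumqin 1 month. Of the 12 neighbouring pairs in that order 1 differed by more than the larger SD of the pair, Ujumqin 85 d and 135 d. The named genes with the most similar group means were LOC100137069 (r = 0.769), SERPINC1 (0.719), ACACA (0.714) and DIRAS3 (0.707), over 13 group means and among 845 genes compared.

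**Figure D1:**
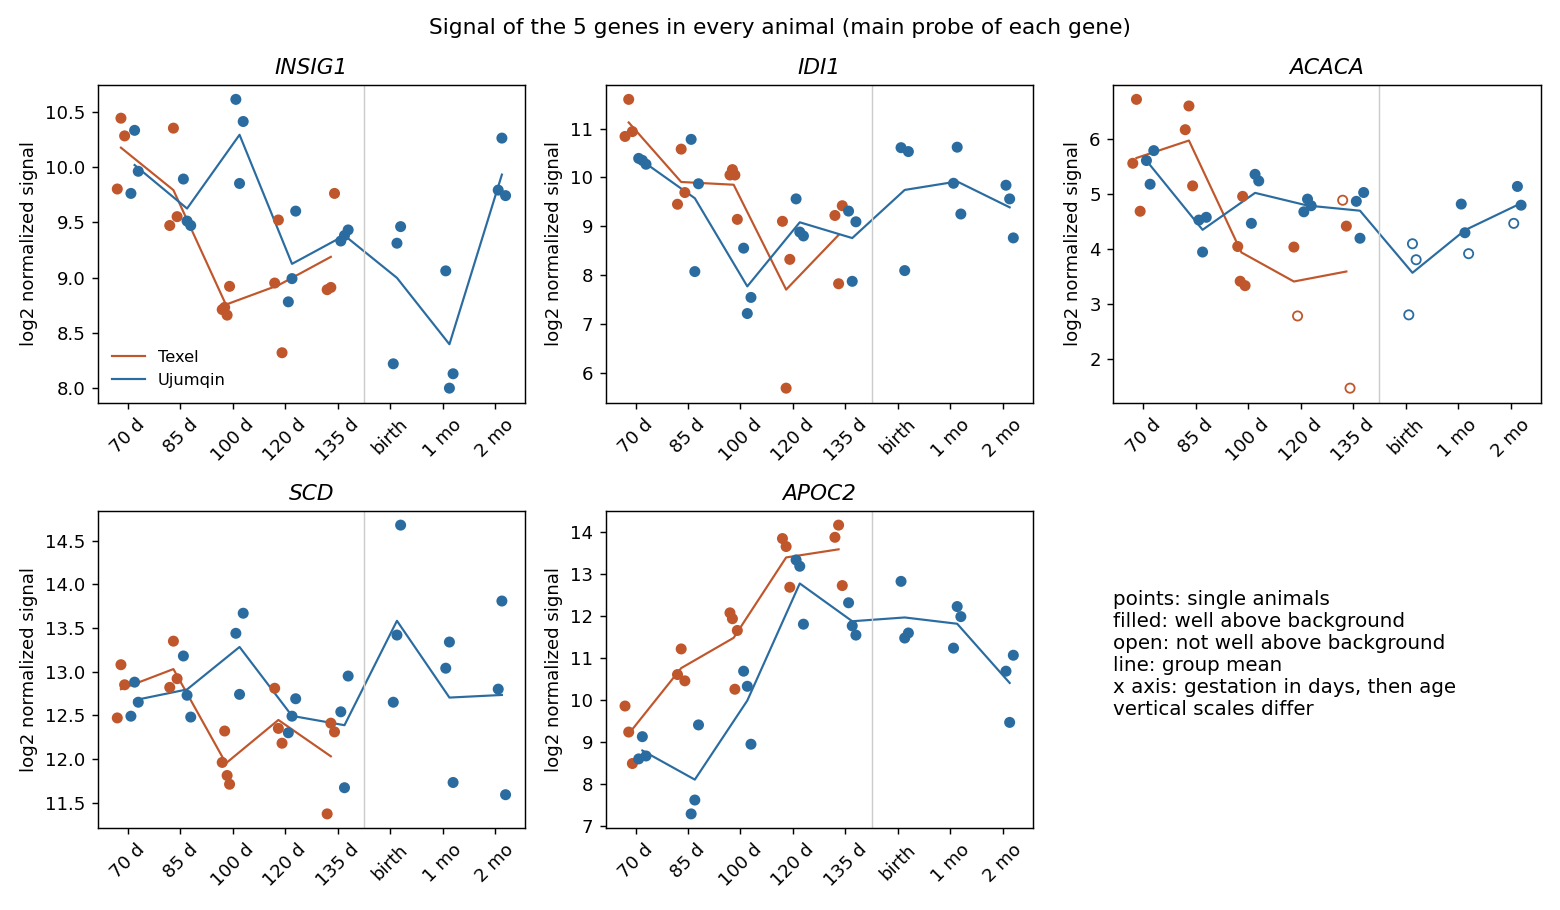
Log2 normalized signal (vertical axis, different scale in each panel) of the 5 genes in every animal, by stage (horizontal axis) and breed; filled points are well above background, open points are not, and lines join group means. APOC2 group means ran from 8.11 (Ujumqin, 85 d) to 13.59 (Texel, 135 d), and INSIG1 was highest in Ujumqin at 100 d at 10.29.

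IDI1, the sterol synthesis enzyme of the set, read 10.84, 11.60 and 10.94 in Texel and 10.39, 10.35 and 10.27 in Ujumqin at 70 d. The Texel fetuses all lay above the Ujumqin fetuses. The 85 d values were 9.45, 10.58 and 9.69 in Texel and 10.78, 8.07 and 9.87 in Ujumqin. These overlapped, with the lowest value in Ujumqin replicate 2. At 100 d, which chose the gene, Texel read 10.05, 10.16, 10.05 and 9.14 and Ujumqin 8.55, 7.21 and 7.54. All Texel values were above all Ujumqin values, a difference of 2.08 (4.23-fold) with no test.

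For IDI1 at 120 d, Texel values were 9.10, 5.68 and 8.32 and Ujumqin values 9.56, 8.88 and 8.80. Texel replicate 2 was the lowest of all 40 arrays. The values at 135 d were 9.22, 7.82 and 9.42 in Texel and 9.31, 7.87 and 9.09 in Ujumqin, and overlapped. Ujumqin animals read 10.61, 8.09 and 10.53 at birth, 9.88, 10.62 and 9.25 at 1 month and 9.84, 9.56 and 8.76 at 2 months. The 3 postnatal groups overlapped each other, and replicate 2 was the lowest at birth.

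No single step of IDI1 passed in limma. Without replicate 2 at birth the step from 135 d to birth was 1.82 and passed (adjusted p = 0.0257), against 0.99 (adjusted p = 0.232) with it. From 70 to 85 d in Texel the difference was −1.22 (adjusted p = 0.842). The steps into and out of 100 d share arrays with the choice of the gene and are given as a description: −2.15 in Texel and 1.31 in Ujumqin from 100 to 120 d, both with no overlap, and −1.81 from 85 to 100 d in Ujumqin. The Texel mean at 120 d holds replicate 2 at 5.68. Within slide 3 the Texel difference from 100 to 120 d was −0.68 (1 array against 3). Within slide 4 the Ujumqin difference was 1.7 (3 arrays against 2).

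IDI1 group means spanned 3.42 log2 units (10.7-fold), beside a pooled SD of 0.90, with Texel 70 d highest at 11.12 and Texel 120 d lowest at 7.70. Between them, downwards, came Ujumqin 70 d, Ujumqin 1 month, Texel 85 d, Texel 100 d, Ujumqin birth, Ujumqin 85 d, Ujumqin 2 months, Ujumqin 120 d, Texel 135 d, Ujumqin 135 d and Ujumqin 100 d. Of the 12 neighbouring pairs 2 differed by more than the larger SD, Texel and Ujumqin at 70 d, and Ujumqin 135 d and 100 d. NKX2.2 (r = 0.845), SMCT1 (0.826), VHNF1 (0.819) and SLC9A3R1 (0.798) had the most similar means over the 13 groups.

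ACACA, the enzyme of the committed step of fatty acid synthesis, was low on the array. Its brighter probe read 5.55, 6.71 and 4.68 in Texel and 5.60, 5.17 and 5.78 in Ujumqin at 70 d, which overlapped. The 85 d values, which chose the gene, were 6.16, 6.59 and 5.14 in Texel and 4.52, 3.94 and 4.57 in Ujumqin. All Texel values lay above all Ujumqin values there, by 1.62 in group means (3.08-fold). At 100 d Texel read 4.04, 3.41, 4.95 and 3.33 and Ujumqin 4.46, 5.35 and 5.23, with overlap.

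The ACACA values at 120 d were 4.03 and 2.78 in Texel replicates 2 and 3, replicate 1 being left out as an outlier spot, and 4.67, 4.90 and 4.78 in Ujumqin. Those at 135 d were 4.88, 4.41 and 1.47 in Texel and 4.86, 4.19 and 5.02 in Ujumqin. Of the Texel values only 1 at each age was well above background. Ujumqin read 2.80, 4.09 and 3.80 at birth, 4.81, 4.29 and 3.91 at 1 month and 4.46, 5.13 and 4.79 at 2 months. None of the 3 arrays at birth was well above background, and 2 of 3 were at each of the later ages.

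ACACA read lower at birth than at 135 d in Ujumqin, from 4.69 ± 0.44 to 3.56 ± 0.67 (SD, n = 3 each). The log2 change was −1.13 (SE 0.33, limma adjusted p = 0.0093), with no overlap. A bound set the 135 d mean against the lowest signal well above background on the birth arrays, or the probe's own where higher. It came to 1.57-fold and holds on this scale only, as normexp gave a smaller change (−0.18). The call of 2-fold or more rests on measured values, of which those at birth were not well above background. The size of the change is therefore not known. The other probe gave −0.82 (limma adjusted p = 0.067), with overlap. Only 1 of its 3 arrays at 135 d was well above background, so its computed 1.39-fold is no lower bound. The call was lost with 75th percentile scaling (−0.73, adjusted p = 0.0598), a floor of 16 (−0.66, adjusted p = 0.0534), the pair of groups alone (adjusted p = 0.0655), with normexp (−0.18, under 2-fold), without replicate 1 at birth (−0.75, adjusted p = 0.0666) and without 135 d replicate 3 (−0.96, under 2-fold), and with slide as a fixed block over the 13 groups it was −3.61 (SE 1.74, adjusted p = 0.299). Over all alternatives the ACACA call stood in 31 of 43, so not every loss is listed here. The groups of 135 d and birth lie on different slides. The fibroblast sums beside it were 108500, 121900 and 107600 at 135 d and 68440, 56410 and 72740 at birth. The sums of HBB (99810, 138200 and 92450 to 9111, 90640 and 78500), hepatocyte (3318, 4252 and 4905 to 3256, 699.3 and 1236) and lymphocyte genes (400, 608.9 and 450.5 to 295.8, 342 and 367.1) were likewise lower in all animals at birth. Those of skeletal muscle (537800, 614800 and 573100 to 779100, 669100 and 842400), macrophage genes (1991, 2361 and 2241 to 2806, 2994 and 3141) and GFAP (337.9, 374 and 476.7 to 879, 516.5 and 943.7) were higher in all, and the adipocyte sum and FLT1 overlapped. Their part in the ACACA result was not tested. The other steps did not pass. Those of 70 to 85 d in Ujumqin (−1.17) and 85 to 100 d in Texel (−2.03), both without overlap, share arrays with the choice and are given as a description.

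Measured group means of ACACA spanned 2.56 log2 units beside a pooled SD of 0.77; the lowest groups hold arrays not well above background, so their order and the span are uncertain, and by the other probe Texel 135 d was the lowest. In descending order they were Texel 85 d at 5.97, Texel 70 d, Ujumqin 70 d, Ujumqin 100 d, Ujumqin 2 months, Ujumqin 120 d, Ujumqin 135 d, Ujumqin 85 d, Ujumqin 1 month, Texel 100 d, Texel 135 d, Ujumqin birth and Texel 120 d at 3.41. Only Ujumqin 70 d and 100 d, 1 of 12 neighbouring pairs, differed by more than the larger SD. HSPA5 (r = 0.819), ANXA2 (0.772) and BEGAIN (0.733) were among the closest in group means.

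SCD, the desaturase, read 12.47, 13.08 and 12.85 in Texel and 12.49, 12.88 and 12.65 in Ujumqin at 70 d, and 12.82, 13.35 and 12.92 and 13.18, 12.73 and 12.48 at 85 d. The breeds overlapped at both. At 100 d, which chose the gene, Texel read 11.96, 12.32, 11.81 and 11.71 and Ujumqin 13.44, 12.74 and 13.67. Texel lay below Ujumqin in all animals, by −1.33 in group means (2.52-fold), and by −1.41 (2.65-fold) with the other probe.

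SCD values at 120 d were 12.81, 12.35 and 12.18 in Texel and 12.30, 12.49 and 12.69 in Ujumqin. At 135 d they were 11.37, 12.41 and 12.31 in Texel and 12.54, 11.67 and 12.95 in Ujumqin. Both pairs of groups overlapped. Ujumqin read 12.65, 13.42 and 14.68 at birth, 13.04, 13.34 and 11.73 at 1 month and 12.80, 13.81 and 11.59 at 2 months. The postnatal animals were widely spread, with the highest value of all arrays in replicate 3 at birth and the lowest postnatal value in replicate 3 at 2 months.

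No step of SCD passed in limma. From 135 d to birth the log2 difference was 1.2 (SE 0.53, adjusted p = 0.0733), and it passed without replicate 1 at birth (1.66, adjusted p = 0.0234) or replicate 3 at 2 months (1.2, adjusted p = 0.0466), the latter through the shared spread, and with normexp (1.28, adjusted p = 0.0465). From 85 to 100 d in Texel, a step that shares arrays with the choice and is given as a description, it was −1.08 with the brighter probe and −0.69 with the other. From 100 to 120 d in Ujumqin, which likewise shares arrays, it was −0.79 with no overlap.

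SCD had the narrowest span of the 5, 1.63 log2 units (3.1-fold) beside a pooled SD of 0.58. The order ran from Ujumqin birth at 13.58 through Ujumqin 100 d, Texel 85 d, Texel 70 d, Ujumqin 85 d, Ujumqin 2 months, Ujumqin 1 month, Ujumqin 70 d, Ujumqin 120 d, Texel 120 d, Ujumqin 135 d and Texel 135 d to Texel 100 d at 11.95. None of the 12 neighbouring pairs differed by more than the larger SD. UBA1 (r = 0.781), ATP6V1E1 (0.762), CAPNS1 (0.76) and SLC39A3 (0.704) were the most similar named genes.

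**Figure D2:**
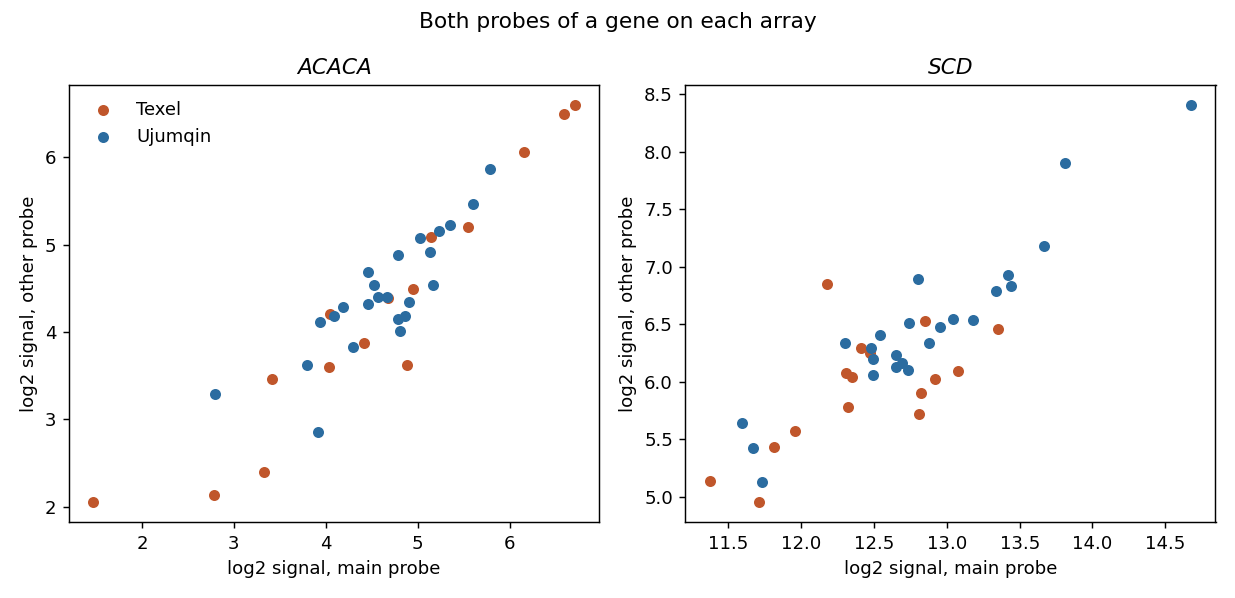
Log2 normalized signal of the dimmer probe against that of the brighter probe of ACACA and of SCD, with each array a point. Over the 13 group means the probes correlated at r = 0.96 for ACACA, whose probes overlap by 58 bases, and at r = 0.87 for SCD, whose probes share no run longer than 6 bases.

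APOC2, the lipoprotein lipase cofactor, read 9.86, 9.24 and 8.49 in Texel and 8.60, 9.13 and 8.67 in Ujumqin at 70 d, with overlap. At 85 d, which chose it, Texel read 10.61, 11.22 and 10.46 and Ujumqin 7.29, 7.62 and 9.41. All Texel values were above all Ujumqin values, by 2.65 in group means (6.3-fold). The values at 100 d were 12.08, 11.94, 10.26 and 11.66 in Texel and 10.69, 10.33 and 8.95 in Ujumqin, with Texel replicate 3 inside the Ujumqin range.

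By 120 d APOC2 read 13.85, 13.66 and 12.69 in Texel and 13.34, 13.19 and 11.81 in Ujumqin, all above every value of the same breed at 100 d. At 135 d, which also chose it, Texel read 13.88, 14.17 and 12.73 and Ujumqin 12.32, 11.77 and 11.55. Texel lay above Ujumqin in all animals, by 1.72 (3.28-fold); the study's text gives the opposite direction for APOC2 at this age. Ujumqin read 12.83, 11.48 and 11.60 at birth, 11.24, 12.23 and 11.99 at 1 month and 10.69, 9.47 and 11.07 at 2 months. The animals of 2 months were all below those of 1 month.

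APOC2 rose between 100 and 120 d in both breeds, a step that did not choose it. In Ujumqin the mean went from 9.99 ± 0.92 to 12.78 ± 0.84 (SD, n = 3 each), a log2 change of 2.79 (6.94-fold, SE 0.58, limma adjusted p = 0.0166). In Texel it went from 11.49 ± 0.84 (SD, n = 4) to 13.40 ± 0.62 (n = 3), a change of 1.91 (3.76-fold, SE 0.48, limma adjusted p = 0.0343). Within slide 4 the Ujumqin change was 3.14 (3 arrays against 2) and within slide 3 the Texel change was 2.56 (1 array against 3). Both are sizes only, with no call read from them. The difference between the breeds in this step was −0.88 (SE 0.78, adjusted p = 0.827), among 9 such differences tested that share no array with the choice of a gene, none of which passed (limma adjusted p 0.676 to 1).

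The other steps of APOC2 did not pass: 1 to 2 months was −1.41 (adjusted p = 0.123) with no overlap. From 85 to 100 d in Ujumqin, which shares the 85 d arrays with the choice and is given as a description, the difference was 1.88, and 2.53 without 85 d replicate 3. From 70 to 85 d in Texel, likewise a description, it was 1.57 with no overlap.

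Leaving out single animals ended these calls. In Ujumqin the call was lost without 120 d replicate 1 (2.52, adjusted p = 0.0679), 120 d replicate 2 (2.59, adjusted p = 0.0883) or 100 d replicate 3 (2.27, adjusted p = 0.105), with sex as a covariate (2.45, adjusted p = 0.0807) and in a fit of the pair of groups alone (adjusted p = 0.098); with slide as a fixed block it held (3.14, adjusted p = 0.0283). In Texel it was lost without 100 d replicate 2, 3 or 4 (2.06, 1.5 and 1.97, adjusted p = 0.0518, 0.0871 and 0.0542), without 120 d replicate 1 or 2 (1.69 and 1.78, adjusted p = 0.0538 and 0.122), and with slide as a fixed block (2.56, adjusted p = 0.492). The change stayed between 2.27 and 3.28 in Ujumqin and between 1.5 and 2.69 in Texel over all alternatives fitted. The call stood in 38 of 45 alternatives in Ujumqin and 26 of 37 in Texel, so not every loss is listed here.

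Marker sums beside the APOC2 step were as follows. Adipocyte sums were 3147, 3284 and 3238 at 100 d and 4285, 4994 and 4930 at 120 d in Ujumqin, and 3542, 3726, 3259 and 4261 and then 4517, 5270 and 3119 in Texel. Hepatocyte sums were 1234, 3232 and 1846 and then 1461, 4075 and 4635 in Ujumqin, and 2416, 2495, 1983 and 2034 and then 7861, 3867 and 3325 in Texel. Adipocyte sums at 120 d lay above those at 100 d in all Ujumqin animals and overlapped in Texel, whereas hepatocyte sums overlapped in Ujumqin and not in Texel. Sums weigh the brightest probe most, and not every marker of a list moved as its sum did. Hepatocyte AHSG in Texel and adipocyte PLIN1 in Ujumqin had no higher mean at 120 d than at 100 d.

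In Ujumqin HBB was 88510, 73220 and 69680 and then 119000, 146300 and 97090, and FLT1 was 11.29, 10.43 and 9.821 and then 20.38, 12.37 and 15.33, both higher in all animals at 120 d. The Ujumqin fibroblast sums, 210900, 230200 and 202600 and then 181000, 151400 and 155800, were lower in all. In Texel the HBB, FLT1 and fibroblast values overlapped, and the skeletal muscle sums, 521500, 528600, 526000 and 529900 and then 505900, 510400 and 521400, were lower in all at 120 d. Macrophage sums were 2779, 2708 and 2696 and then 2479, 2636 and 2273 in Ujumqin, and 3367, 2655, 2796 and 4881 and then 2922, 7621 and 6202 in Texel. The part of other cell types in the APOC2 result was not tested.

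Group means of APOC2 spanned 5.48 log2 units (44.6-fold), the widest of the 5, beside a pooled SD of 0.73. They ran from Texel 135 d at 13.59 through Texel 120 d, Ujumqin 120 d, Ujumqin birth, Ujumqin 135 d, Ujumqin 1 month, Texel 100 d, Texel 85 d, Ujumqin 2 months, Ujumqin 100 d, Texel 70 d and Ujumqin 70 d to Ujumqin 85 d at 8.11. No neighbouring pair of the 12 differed by more than the larger SD, the widest gap being 0.81 between Ujumqin 120 d and birth. IL12A (r = 0.904), FAS (0.863), OXTR (0.853) and VEGFA (0.852) had the most similar group means.

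**Figure D3:**
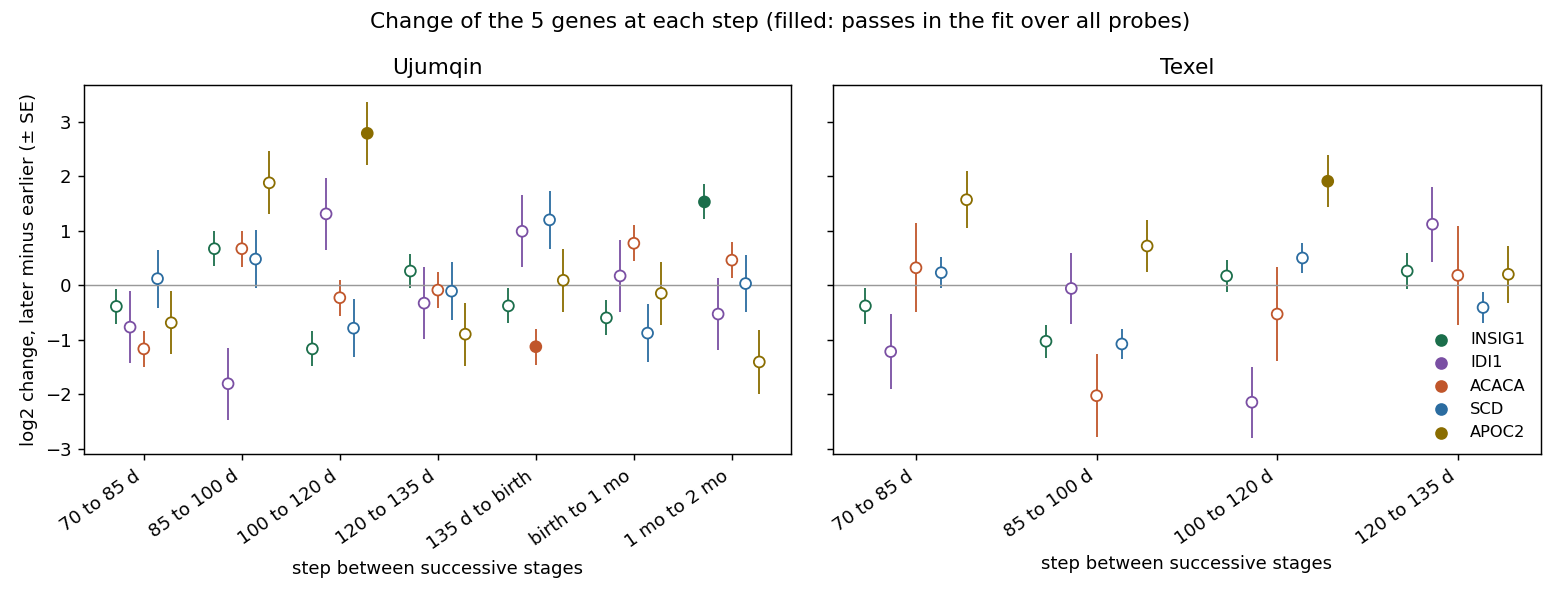
Log2 change (vertical axis) of each gene over each successive stage step, with the standard error from limma, in Ujumqin and Texel; filled points pass (adjusted p below 0.05 and at least 2-fold by measured values). The filled points are APOC2 from 100 to 120 d in Ujumqin (2.79) and Texel (1.91), ACACA from 135 d to birth (−1.13 as measured, with no birth array well above background and a bound of 1.57-fold on this scale only) and INSIG1 from 1 to 2 months (1.53).

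Stage as a whole was tested by limma's F test in each breed. This test holds the arrays by which the genes were chosen, so its counts support nothing, and the values without those stages follow below. In Ujumqin 4 of the 5 genes passed, beside 81.9% of 14479 probes tested: INSIG1 (adjusted p = 0.000443), IDI1 (0.0393), ACACA (0.00148) and APOC2 (3.35e-06), with SCD at 0.4. In Texel 4 of 5 passed, beside 38.4% of 14480 probes: INSIG1 (0.0101), IDI1 (0.0117), SCD (0.0197) and APOC2 (8.52e-05), with ACACA at 0.058. The second probe changed the Texel calls of ACACA (0.0306) and SCD (0.149). With slide as a fixed block none of the 4 Texel calls held in limma (INSIG1 0.98, IDI1 0.809 and APOC2 0.368, with SCD also above 0.05). With that block over the 13 groups 2 of 5 passed in Ujumqin, as IDI1 and ACACA did not, and in the fit over 13 groups without it ACACA had 0.141. The Ujumqin share is near that of all probes and says nothing particular to these genes.

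When each gene was tested without the stages at which it was chosen, an alternative added after seeing the data, 3 of 5 passed in Ujumqin: INSIG1 (adjusted p = 0.00228), ACACA (0.00195) and APOC2 (9.06e-05), while IDI1 had 0.356. In Texel 2 passed, IDI1 (0.0242) and APOC2 (0.002), while INSIG1 had 0.0716 and SCD 0.0971. Of all probes, 80.9% in Ujumqin and 29% in Texel passed without the 100 d arrays, 80.2% and 32.3% without those of 85 d, and 78.8% and 24.8% without those of 85 d and 135 d. The Ujumqin IDI1 call was also lost with 10 of the 24 arrays left out singly, such as 100 d replicate 2 (adjusted p = 0.138), and the Texel SCD call without 85 d replicate 2 (adjusted p = 0.0532).

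By single steps, a pass needed at least a 2-fold difference together with an adjusted p below 0.05. From 135 d to birth 1 of 5 genes passed (ACACA), beside 20% of all probes tested. From birth to 1 month none did in limma, beside 8.65%; 1 gene had an unadjusted p under 0.05, ACACA at 0.0302 with no birth array well above background, beside 37.1% of probes, and the methods' t-test called none, beside 6.26% at its unadjusted p with 2-fold. From 1 to 2 months 1 of 5 passed (INSIG1), beside 4.14%.

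In Ujumqin fetuses 1 of 5 passed from 100 to 120 d (APOC2), beside 0.932% of probes. None passed in limma from 70 to 85 d (0.228% of probes), 85 to 100 d (1.10%) or 120 to 135 d (3.84%), where 1, 2 and 0 genes had an unadjusted p under 0.05, beside 6.86%, 16.9% and 27.5% of probes. The methods' t-test called 1, 0 and 0 there at an unadjusted p below 0.05 with 2-fold, beside 0.677%, 1.70% and 3.61%. Once an FDR below 0.4, which the study also asked for, was added, it called none, beside 0.00%, 1.70% and 3.61% of probes. In Texel fetuses 1 of 5 passed from 100 to 120 d (APOC2), beside 3.71%. None passed in limma from 70 to 85 d (0.124%), 85 to 100 d (0.753%) or 120 to 135 d (0.304%), where 1, 3 and 0 had an unadjusted p under 0.05, beside 6.95%, 18.7% and 18.4%. The methods' t-test called 2, 2 and 0 there, beside 1.08%, 2.23% and 1.05%. With the FDR limit it called 0, 2 and 0, beside 0.00%, 2.23% and 0.00% of all probes. Genes chosen by arrays of a step are among these counts, so nothing is read from them.

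The Texel shares rest in part on single arrays: with each of 16 left out in turn, the number of probes called stayed within 1.5 times in 8, 8, 11 and 1 cases over the 4 steps in order. From 120 to 135 d it was 744 without 120 d replicate 2, in place of 44.

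Between the breeds at 70 d none of the 5 passed in limma, beside 0.117% of probes. IDI1, with no overlap, was 0.78 higher in Texel (SE 0.22, adjusted p = 0.161) and was the 1 gene with an unadjusted p under 0.05 (0.0102), beside 17.2% of probes; the methods' t-test called none, beside 1.73% at its unadjusted p with 2-fold. At 120 d none passed in limma, beside 0.0345%. There ACACA was the 1 gene with an unadjusted p under 0.05 (0.0167), beside 10.6% of probes, at −1.37 in Texel relative to Ujumqin (SE 0.40, adjusted p = 0.41, no overlap, 2 Texel animals), and the methods' t-test called none, beside 1.16%. Its other probe, with all 3 Texel animals, overlapped between the breeds and gave −0.97 (limma adjusted p = 0.641). The 70 d groups lie on different slides. With each array left out in turn, the number of probes called at 70 d stayed within 1.5 times in 0 of 6 cases. At 120 d it did so in 3 of 6.

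For the stages that chose the genes, 2 of 5 did not overlap between breeds at 85 d (ACACA and APOC2), 3 at 100 d (INSIG1, IDI1 and SCD) and 1 at 135 d (APOC2), as the choice fixes. Over all probes 21.6%, 12.7% and 12.4% did not overlap there, and 0.0207%, 0.0138% and 0.0207% were called by limma. Nothing is read from the members' counts. With each array left out in turn, the number called at 85 d stayed within 1.5 times in 4 of 6 cases. At 100 d and 135 d it did so in 1 of 7 and 3 of 6. Without Ujumqin replicate 1 at 100 d it was 159, in place of 2. The genes not chosen at a stage overlapped between the breeds by their brighter probes at each of these ages; the dimmer ACACA probe did not overlap at 100 d and 135 d.

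**Figure D4:**
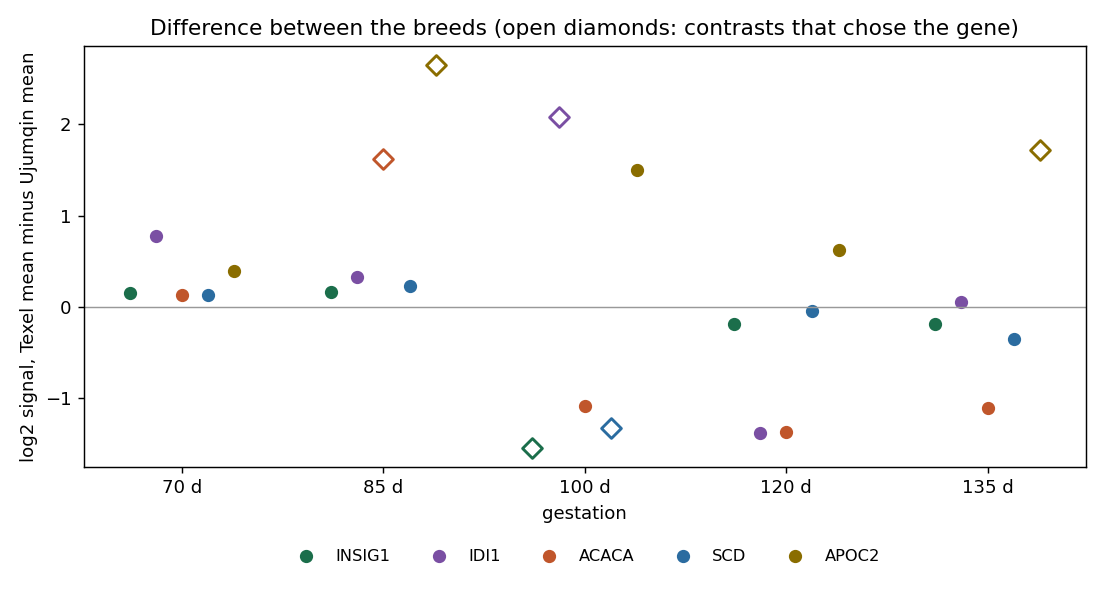
Texel minus Ujumqin difference of group means (log2, vertical axis) at 5 fetal stages for the 5 genes; open diamonds mark the contrasts by which a gene was chosen. The diamonds are at −1.54 (INSIG1), 2.08 (IDI1) and −1.33 (SCD) at 100 d, 1.62 (ACACA) at 85 d, and 2.65 and 1.72 (APOC2) at 85 d and 135 d.

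Among the 5 genes, group means over the 13 groups correlated at r = 0.71 between INSIG1 and ACACA, at −0.69 between INSIG1 and APOC2 and at −0.62 between ACACA and APOC2. IDI1 and INSIG1, the pair of sterol genes, were at 0.11, and ACACA and SCD, the pair of fatty acid enzymes, at 0.28. The other 5 pairs ran from −0.49 to 0.46. The points share slides, normalization and, in fetuses, stage.

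Of the other genes of these pathways 19 carried a name on the array and were tested, from 6 lists. Others may lie on it under probes without a name. The median change of the 19 is given beside that of all probes. Among those named, SQLE was the 1 other sterol synthesis gene and LIPA the 1 other gene of sterol sensing, uptake and export. Neither passed a step in any comparison. SQLE had a stage effect in both breeds, and LIPA in Ujumqin only, a difference that was not tested. In all, 19 of 19 had a stage effect in Ujumqin, beside 81.9% of all probes, and 12 of 19 in Texel, beside 38.4%.

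At birth 5 of the 19 passed, 3 up and 2 down, beside 20% of all probes, with a median of 0.40 against −0.01 over all probes. The mitochondrial carrier UCP3 rose from 9.90 ± 1.11 at 135 d to 13.99 ± 0.40 (SD, n = 3 each; 17.1-fold, SE 0.58, limma adjusted p = 2.15e-05). The acylcarnitine carrier SLC25A20 rose 4.12-fold (log2 2.04, SE 0.17, adjusted p = 1.83e-07) and ME1, which makes NADPH for lipid synthesis, 3.54-fold (1.82, SE 0.20, adjusted p = 1.73e-06). SCD5, a second desaturase, fell (−1.49, SE 0.18, adjusted p = 4.48e-06), as did ACSS2, which activates acetate (−1.30, SE 0.26, adjusted p = 0.000515). PLIN1 (0.63, limma adjusted p = 0.0131), FASN (0.55, 0.0431) and LIPA (0.46, 0.0297) rose by less than 2-fold and did not pass. By list, 3 of 5 other fatty acid synthesis genes and 2 of 5 oxidation genes passed, and none of 4 storage and 3 uptake genes. With slide as a fixed block over the 13 groups, SLC25A20 was the 1 of these 5 calls that held (3.25), while UCP3 was 6.21 (adjusted p = 0.0636), ME1 1.48 (0.267), SCD5 −2.29 (0.108) and ACSS2 −2.47 (0.0642), larger than without it except for ME1; ACSS2 was also lost with 75th percentile scaling (−0.99) and normexp (−0.78).

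From birth to 1 month 3 of the 19 passed, beside 8.65% of all probes, with a median of 0.17 against −0.01. PLIN1 (0.77, limma adjusted p = 0.0082), FASN (0.54, 0.0449) and DGAT1 (−0.44, 0.0459) changed by less than 2-fold and did not pass. The lipid droplet protein PLIN2 rose 2.55-fold (1.35, SE 0.33, limma adjusted p = 0.00601) and ACSS2 2.07-fold (1.05, SE 0.26, adjusted p = 0.00674), while SLC25A20 fell (−1.05, SE 0.17, adjusted p = 0.000443). Single animals ended each call: PLIN2 without 1 month replicate 3 (0.97), ACSS2 without birth replicate 2 (0.95) or 1 month replicate 1 (0.80), and SLC25A20 without birth replicate 2 (−0.97). ACSS2 was also lost with 75th percentile scaling (0.91) and normexp (0.62), SLC25A20 with normexp (−0.91), and PLIN2 and ACSS2 in a fit of the pair of groups alone (adjusted p = 0.0683 and 0.0536).

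From 1 to 2 months, 2 of 19 passed, beside 4.14%, with a median of 0.18 against 0.02. FASN (−0.90, limma adjusted p = 0.0076), ME1 (0.67, 0.0362) and SLC25A20 (0.56, 0.0453) changed by less than 2-fold and did not pass. PLIN5 rose 2.46-fold (1.30, SE 0.31, adjusted p = 0.0137) and PLIN1 fell (−1.04, SE 0.20, adjusted p = 0.0036), although with slide as a fixed block over the 13 groups PLIN1 was 0.28. PLIN5 was lost without 1 month replicate 2 (1.16) and PLIN1 without 2 months replicate 2 (−0.97); PLIN1 was also lost with normexp (−0.94) and PLIN5 in the pair of groups alone (adjusted p = 0.0607). Beside the step from birth to 1 month, lymphocyte sums went from 295.8, 342 and 367.1 to 1317, 1097 and 1263 and fibroblast sums from 68440, 56410 and 72740 to 75680, 79990 and 88570, without overlap, and the other 7 lists overlapped; the markers of the steps before and after stand with ACACA and INSIG1. Their part in these changes was not tested. None of the 5 calls of these steps held with that slide block, under which PLIN2 was 1.01, ACSS2 1.43, SLC25A20 −1.31 and PLIN5 1.74.

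In Ujumqin fetuses, 2 of 19 rose from 100 to 120 d, the step of APOC2, beside 0.932% of all probes called, with a median of 0.28 against 0.00: UCP3 (2.40, SE 0.58, limma adjusted p = 0.0385) and PLIN5 (1.36, SE 0.31, adjusted p = 0.0301). The UCP3 call was lost without any 120 d replicate (2.52, 2.50 and 2.17), 100 d replicate 1 or 2 (1.70 and 2.61), 70 d replicate 3 or 1 month replicate 2 (2.40 each), and the PLIN5 call without any 120 d replicate (1.41, 1.34 and 1.34) or 100 d replicate 1 or 3 (1.16 and 1.36); within slide 4 they were 1.70 and 1.16 and did not pass. Both were also lost with slide as a fixed block (adjusted p = 0.216 and 0.166), also over the 13 groups, with sex (0.0871 and 0.083), with the 31 fetal arrays normalized together (0.0837 and 0.0533) and in the pair of groups alone (0.139 and 0.0594), and PLIN5 with normexp (0.87) and in the fit over 13 groups (0.055).

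From 120 to 135 d SLC25A20 was the 1 of 19 that passed (1.16, SE 0.17, limma adjusted p = 0.000334), beside 3.84% of all probes called. The median of the 19 was 0.15 against −0.02. CPT1B (0.98, limma adjusted p = 0.00386), ME1 (0.82, 0.01) and SCD5 (−0.82, 0.00536) changed by less than 2-fold and did not pass. The SLC25A20 change was 0.87 without 135 d replicate 2 and 0.69 with normexp. With slide as a fixed block over the 13 groups it was 0.41 (adjusted p = 0.6). None of these passed, nor did the pair of groups alone (adjusted p = 0.0538). Adipocyte sums beside the step from 120 to 135 d went from 4285, 4994 and 4930 to 6745, 6377 and 5257, without overlap. Fibroblast sums went from 181000, 151400 and 155800 to 108500, 121900 and 107600, also without overlap. The other 7 lists overlapped. The part of these cell types was not tested.

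In Texel fetuses CPT1A, which admits fatty acids to the mitochondrion, was the 1 of 19 that rose from 85 to 100 d (1.52, SE 0.25, adjusted p = 0.0145; median 0.19 against −0.01), beside 0.753%, and the call was lost without 85 d replicate 1 (1.59) or 2 (1.40), with slide as a fixed block (1.36, adjusted p = 1) and with normexp (0.73). Beside it adipocyte sums went from 2430, 3120 and 2998 to 3542, 3726, 3259 and 4261, HBB from 66480, 45670 and 57280 to 84610, 77550, 101200 and 94520 and skeletal muscle sums from 536900, 546400 and 545000 to 521500, 528600, 526000 and 529900, without overlap, and the other 6 lists overlapped; their part was not tested.

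From 100 to 120 d in Texel it was LPL, the lipase that APOC2 activates, from 9.0 ± 0.47 (SD, n = 4) to 10.81 ± 0.55 (n = 3), a change of 1.81 (3.51-fold, SE 0.32, adjusted p = 0.00747; median 0.13 against −0.04), beside 3.71%. That call held with each of the 16 Texel arrays left out, and was lost with slide as a fixed block, in each breed (1.42) or over the 13 groups, and in the pair of groups alone (adjusted p = 0.0737). The markers of this step stand with APOC2.

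In limma none of the 19 passed at the other 4 fetal steps or between the breeds at any of 5 ages. There FABP5, CPT1B and SCD5, named for their high mean signal, differed by −0.07 to 0.45, −0.27 to 1.21 and −0.62 to 0.68.

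**Figure D5:**
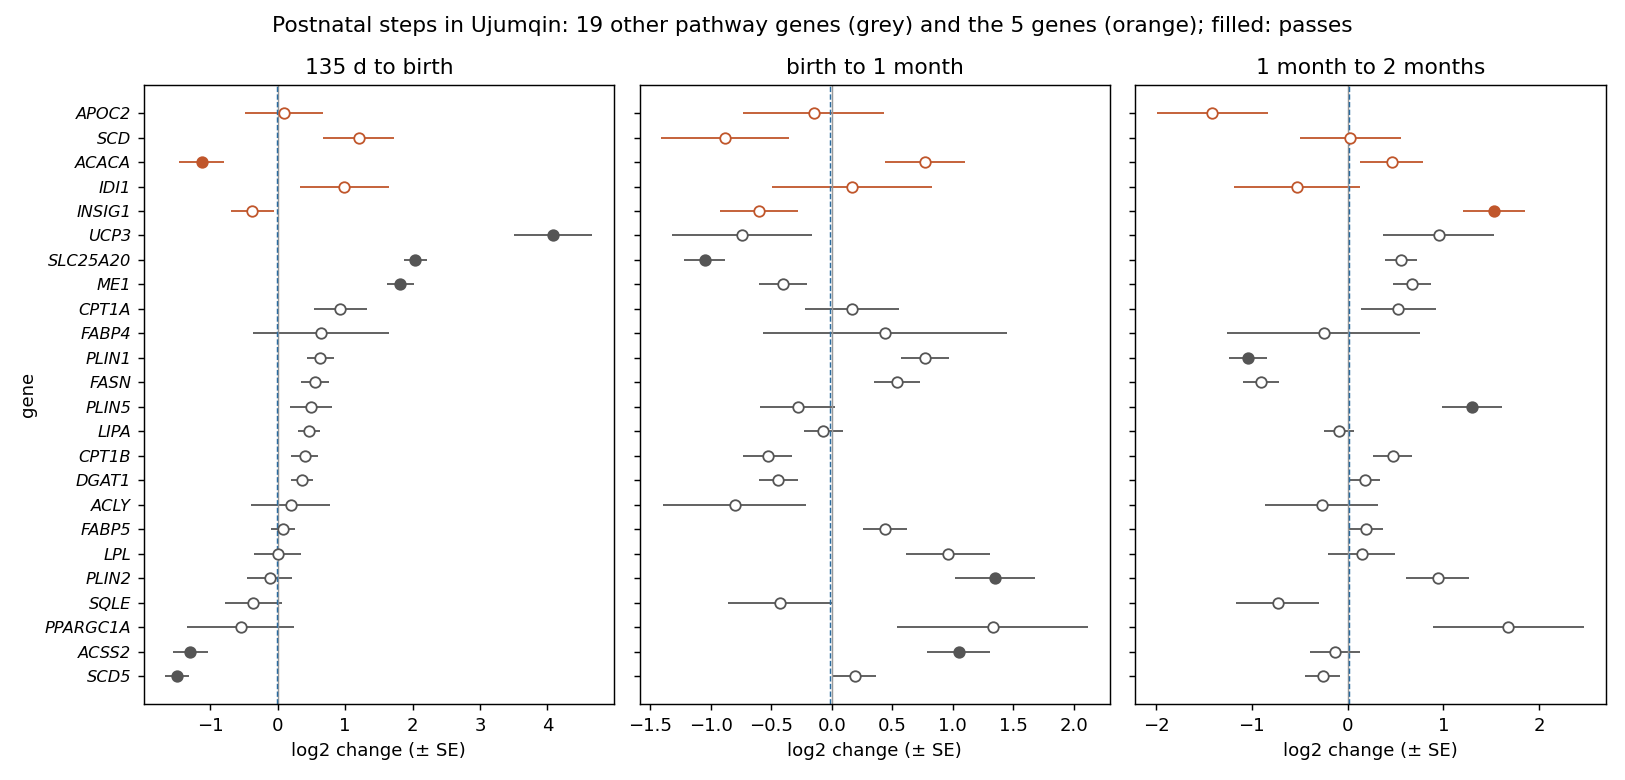
Log2 change with its standard error at the 3 postnatal steps for 19 other lipid genes (grey) and the 5 genes (orange); filled points pass, and the blue dashed line is the median over all probes. UCP3 at birth (4.09) has the largest change drawn, and of the 5 genes ACACA at birth (−1.13 as measured, with a bound of 1.57-fold on this scale only) and INSIG1 from 1 to 2 months (1.53) are filled.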

How the data were processed

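RNA of 40 muscles was hybridised to 1-colour Agilent arrays of 15208 probe spots (15008 probes). Per the file headers, the processed signal is a background-subtracted intensity made by the authors with Agilent Feature Extraction 10.5. The authors also deposited a table of quantile-normalized log2 values, which was used as an alternative. Here the processed intensity was quantile-normalized over the 40 arrays, floored at 1 and taken as log2. Outlier spots were left out. The 14480 probes well above background on at least 1 array were tested by limma 3.58.1 (R 4.3.3) within each breed, or within a stage between breeds, with Benjamini-Hochberg adjustment over all probes. A test passed at an adjusted p below 0.05, and single steps also had to reach 2-fold. The fits were tested on simulated data. Tables and figures used Python 3.11.15, numpy 2.4.6, pandas 2.3.3 and matplotlib 3.10.9.

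Names came from the files (1605 probes) or, for 662 of 683 accessions, from the RefSeq table of assembly GCF_016772045.2; INSIG1, IDI1, APOC2 and the brighter SCD probe were named as in the study's annotation, and no probe was aligned to a genome to check its name. Of each comparison up to 8 pathway genes that passed were named, or the 3 of highest mean signal where none did. For each gene the 4 named genes of highest correlation were given, among those well above background on 20 arrays; 1 of these is not reported here. The members and lists were chosen with earlier results of these data known. Alternatives covered the background correction, scaling, floor, filter on dim probes, outlier spots, fit, variance model, slide, sex, replicate number, probe, single arrays left out and the methods' t-test. The study used that test between breeds only, with an FDR limit of 0.4 beside the unadjusted p; its form with this limit was added after seeing the data. The number of arrays limits the precision.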

Additional observations from a re-analysis of the deposited data

Results flagged for a closer look

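In the 4 Texel fetuses at 100 d, the only group of 4, IDI1 of replicate 4 lay apart at 9.14, below 10.05, 10.16 and 10.05. Its gap to the nearest other value was 0.888 of the range, above Dixon's critical value for 4 samples. IDI1 was chosen by its values at this stage, so the gap is given as a description. Chance alone marks about 1 in 20 such groups, and 7 probes were looked at. The lymphocyte sum of that animal was also the highest of its group, at 1957. Its part in the IDI1 value was not tested.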

How the results depend on the processing

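Counts of the 5 genes that passed were compared over all alternatives. In Ujumqin the stage effect (4) was 2 with slide as a fixed block in a fit over 13 groups, 3 without the stages that chose each gene, and 3 to 4 with arrays left out singly. IDI1 was lost with that block and without its stages (adjusted p = 0.356), and also with normexp, the floor of 16 and sex. ACACA was lost in both fits over 13 groups (0.141 without the slide block). In Texel (4) it was 0 with slide as a fixed block, 1 with that block over 13 groups and 2 without the stages that chose each gene, and 3 to 5 with arrays left out. It was 5 with 75th percentile scaling, normexp, the filter at 20 arrays, the floor of 16, an intensity trend and slide as a random block, through ACACA (adjusted p = 0.058), which also passed in the fit over 13 groups (0.0011), where SCD did not, and without Texel 135 d replicate 1 or 3. The fits over 13 groups with the slide block and those without the listed stages were chosen after seeing the data.

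From 135 d to birth (1) the count was 0 with 75th percentile scaling, a floor of 16, the pair of groups alone, the slide block over 13 groups, all 3 forms of the methods' t-test and the dimmer probe, and 0 to 2 with arrays left out. A count of 1 did not always mean ACACA, whose own call stood in 31 of 43 alternatives. With normexp, for example, the count was 1, where SCD (1.28) passed in place of ACACA. From birth to 1 month (0) it was 0 throughout, and 0 to 1 with arrays left out (ACACA without birth replicate 2, by measured values with no birth array well above background). From 1 to 2 months (1) it was 0 with the pair of groups alone, the slide block over 13 groups and the adjusted t-test, and 1 with each array left out. PLIN1 at that step turned from −1.04 to 0.28 with the slide block over 13 groups.

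Over the Ujumqin fetal steps (1) it was 2 with normexp and with the 31 fetal arrays normalized together, 0 with the pair of groups alone, sex and the adjusted t-test, 3 with the unadjusted t-test, 2 with its FDR limit of 0.4, and 0 to 2 with arrays left out. Over the Texel fetal steps (1) it was 2 with normexp, the filter at 20 arrays, the floor of 16 and an intensity trend with robust variance, 4 in the fit over 13 groups, 3 with the pair of groups alone, 5 with the unadjusted t-test, 2 with its FDR limit, 0 with either slide block and the adjusted t-test, and 0 to 3 with arrays left out. The fetal passes gained with arrays left out (INSIG1, IDI1, SCD and APOC2) were all at steps that share arrays with the choice. ACACA at birth, PLIN2, UCP3 from 100 to 120 d and SLC25A20 from 120 to 135 d were lost with the unadjusted t-test already. APOC2 and LPL in Texel were lost once its FDR limit was added. Breeds at 70 d and 120 d gave 0 under all alternatives, and 0 with each array left out; at 120 d sex could not be fitted. The causes were not tested.

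With the replicate number as a block the counts were as in the fit without it (4, 4, 1, 0, 1, 1, 1, 0 and 0). The pairing was checked over 48 pairs: same-numbered samples correlated at −0.31 to 0.17, and in no comparison did all pairs exceed 0.1, so the numbers do not pair the animals.

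Scaling by the 75th percentile moved the all-probe median by 0.23 from 135 d to birth and by −0.13 from 1 to 2 months. Higher and lower calls were then 2446 and 915 (1514 and 1380 with quantile normalization) at birth, 118 and 864 (206 and 393) from 1 to 2 months, 61 and 104 (80 and 79) from 85 to 100 d in Ujumqin, 48 and 65 (27 and 17) from 120 to 135 d in Texel, 69 and 10 (8 and 9) between breeds at 70 d, and 1 and 0 (1 and 2) at 85 d.

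Numbers of all probes called ranged over the alternatives from 194 to 6694 at birth (2894 in the report), 0 to 3579 from birth to 1 month (1253) and 1 to 1688 from 1 to 2 months (599). In Ujumqin fetuses they were 0 to 98 (33), 0 to 383 (159), 0 to 246 (135) and 0 to 1835 (556) over the 4 steps in order, and in Texel 0 to 156 (18), 0 to 322 (109), 0 to 1405 (537) and 0 to 744 (44, the 744 without 120 d replicate 2). Between breeds they were 0 to 250 at 70 d (17), 0 to 133 at 85 d (3), 0 to 159 at 100 d (2, the 159 without Ujumqin 100 d replicate 1), 0 to 491 at 120 d (5) and 0 to 106 at 135 d (3). The stage effect gave 7359 to 12190 in Ujumqin (11862) and 43 to 7526 in Texel (5560). ACACA was well above background on 31 of 39 arrays, which limits its values.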
